A study of Mus musculus with 12 samples.

Results

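Kat6b, the gene that hosts the circular RNA circKat6b-e2, was followed together with the other MYST-family histone acetyltransferase genes and the subunits that hold their complexes together. The 10 genes were taken by name from the count tables, where each matched 1 entry, of 52636 genes in all. They are the 5 enzyme genes Kat6b, Kat6a, Kat7, Kat5 and Kat8, the 3 scaffold genes Brpf1, Brpf3 and Brd1, and the 2 small-subunit genes Ing5 and Meaf6.

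The libraries came from E14, a mouse embryonic stem cell (ESC) line, and 4 groups of 3 biological replicates were sequenced, 12 libraries in all. ESC WT were undifferentiated wild-type cells, ESC KD were undifferentiated cells with an shRNA knockdown (KD) of circKat6b-e2, and EB WT and EB KD were the corresponding embryoid bodies (EBs) at day 6 of differentiation. In EBs, ESCs grow as floating clumps and differentiate into early germ-layer derivatives. Undifferentiated cells of both genotypes were grown without feeder cells, on gelatin and in serum with LIF, the MEK inhibitor PD0325901 and the GSK3 inhibitor CHIR99021. The labels do not say whether WT cells carried a control shRNA, nor whether the knockdown line is clonal or pooled, and any such difference is part of a KD minus WT value. p-values measure the spread between these libraries.

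MYST enzymes transfer acetyl groups to lysines of histone tails, and each works inside a complex that sets which lysine and which genes it acts on. KAT6A (MOZ) and KAT6B (MORF) sit on a BRPF scaffold with ING5 and MEAF6, and KAT7 (HBO1) uses the same scaffolds or JADE proteins. KAT5 (TIP60) belongs to the large NuA4-type complex, and KAT8 (MOF) works in the MSL and NSL complexes. KAT5 and KAT8 complexes are known for their part in the self-renewal of ESCs, and KAT6B and BRPF1 are known for neurodevelopmental syndromes when mutated.

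The name circKat6b-e2 points to exon 2 of Kat6b, so that exon is shown first. In GRCm38 it lies at chr14:21516626-21517498 on the plus strand and spans 873 bases, 249 before the start codon and 624 coding. It makes up 5.19% of the exon length of Kat6b and is shared by 4 coding transcripts of the basic set of the GENCODE annotation. Only transcripts that also carry an APPRIS isoform tag were examined. The sources used here give neither the ends of the circle nor the shRNA sequence. The first 90 coding bases (chr14:21516875-21516964) and the last 60 bases of the exon (chr14:21517439-21517498), where it joins the exon after it in the linear transcript, are given with the start codon in capitals.
Kat6b exon 2, from the start codon: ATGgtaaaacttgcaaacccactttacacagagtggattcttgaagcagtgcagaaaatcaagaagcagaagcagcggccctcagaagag
Kat6b exon 2, last bases: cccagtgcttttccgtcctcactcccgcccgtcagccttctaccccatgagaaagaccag
Libraries were made from mRNA selected on poly-T beads, which does not retain circular RNA. The knocked-down molecule was therefore not measured, and the counts describe the linear transcripts of Kat6b.

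Promoters are shown for the 3 genes with the largest KD minus WT differences in EBs, as the 250 bases before the RefSeq start on GRCm38.p6. For Kat6b that start lies inside the counted gene, whose first exon begins at chr14:21481434. The bases before that first exon were not examined. The Brpf3 window runs into the counted gene, which begins at chr17:28801090, and the Brd1 and Kat8 windows also reach into theirs. RefSeq entries matched 9 of the 10 genes, all but Kat6a. Capitals mark GC boxes, searched as GGGCGG and its reverse complement CCGCCC with overlaps counted.
Kat6b, chr14:21499520-21499769, plus strand: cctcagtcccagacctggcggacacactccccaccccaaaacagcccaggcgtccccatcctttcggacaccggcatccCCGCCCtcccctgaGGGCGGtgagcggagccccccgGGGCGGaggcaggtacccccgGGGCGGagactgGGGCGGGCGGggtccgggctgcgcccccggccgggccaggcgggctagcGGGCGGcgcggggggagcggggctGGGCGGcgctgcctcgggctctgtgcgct
Brpf3, chr17:28800876-28801125, plus strand: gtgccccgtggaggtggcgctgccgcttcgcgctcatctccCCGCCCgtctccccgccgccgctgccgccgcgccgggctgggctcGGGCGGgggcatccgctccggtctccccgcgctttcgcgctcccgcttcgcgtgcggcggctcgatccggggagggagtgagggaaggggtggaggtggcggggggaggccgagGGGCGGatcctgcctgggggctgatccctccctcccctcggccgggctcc
Meaf6, chr4:125084884-125085133, plus strand: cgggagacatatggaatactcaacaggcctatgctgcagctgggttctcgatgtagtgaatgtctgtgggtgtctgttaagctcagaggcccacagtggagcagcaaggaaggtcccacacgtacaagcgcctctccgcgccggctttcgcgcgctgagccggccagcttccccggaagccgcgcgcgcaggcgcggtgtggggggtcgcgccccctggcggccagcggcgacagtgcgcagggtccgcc
The Kat6b window held 8 GC boxes, the Brpf3 window 3 and the Meaf6 window 0. Among the others, Brd1 held 4, Ing5 held 3, Kat8 and Brpf1 held 1 each, and Kat7 and Kat5 held 0. At least 1 GC box was present in 6 of the 9 windows, against 32.9% of the 27025 genes of the RefSeq table. The ETS core CCGGAAG, with CTTCCGG on the other strand, was present in 2 of the 9, Ing5 and Meaf6, against 7.05% of all genes. The E-box CACGTG was present in Kat5 alone of the 9, against 6.05%, and TATAAA or TTTATA in 0 of the 9, against 13.0%. The windows held between 8 CG dinucleotides in Kat7 and 34 in Brpf3, against a median of 6 over all genes. These matches describe the sequences only.

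In GRCm38 the enzyme genes lie at chr14:21481434-21672478 on the plus strand (Kat6b), chr8:22859535-22943259 on the plus strand (Kat6a), chr11:95274259-95310246 on the minus strand (Kat7), chr19:5603017-5610094 on the minus strand (Kat5) and chr7:127912516-127925837 on the plus strand (Kat8). The scaffold genes lie at chr6:113307137-113324860 on the plus strand (Brpf1), chr17:28801090-28838546 on the plus strand (Brpf3) and chr15:88687300-88734233 on the minus strand (Brd1). Ing5 lies at chr1:93803965-93822101 and Meaf6 at chr4:125085134-125113238, both on the plus strand. Kat6b has the longest summed exon length, 16826 bases, and Kat5 the shortest, 2008 bases. Counting named no strand option, so reads of genes that overlap on opposite strands cannot be told apart. Kat5 shares 423 exon bases (21.1% of its length) with Rnaseh2c and Kat8 shares 122 (4.22%) with Prss8, so values of Kat5 and Kat8 are uncertain to that extent. Brpf1 shares 255 bases (3.76%) with Gm15492, which had 11 counts over the 12 libraries, and the other 7 genes share none.

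Library totals lay between 25.4 and 37.8 M counts, and the 10 genes had between 354 and 4968 counts in each. ESC WT replicate 2 stood apart from its group: the chi-square per gene against the other ESC WT libraries was 55.4 and 56.0, against 4.78 to 9.11 for the other replicate pairs. The libraries also differed in which gene lengths they held. Genes with under 1 kb of exon took 9.0% to 12.2% of the counts in ESC libraries, the most in ESC WT replicate 2, and 2.88% to 3.52% in EB libraries. The count-weighted mean exon length was 3.55 to 3.95 kb in ESCs, 5.46 to 5.52 kb in EB WT and 5.69 to 5.78 kb in EB KD. Pluripotency markers followed the stage labels: 7 of them summed to 2181 to 3021 CPM (counts per 1 M counts) in ESC WT and 3355 to 3420 in ESC KD, against 205 to 211 in EB WT and 345 to 378 in EB KD.

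Levels of different genes were compared per exon length, as TPM (counts per kb of exon, scaled to the same total in each library). The length is that of all exons of a gene together, which can exceed that of a single transcript. Kat7 was the highest of the 10 genes in all 4 groups. In ESC WT it stood at 43.0 ± 10.3 TPM (SD, n = 3), above Kat8 at 21.4 ± 3.98. The range of each gene from Kat8 at rank 2 to Brpf3 at rank 8 overlapped that of the next lower one: Kat5 at 17.5 ± 6.18, Meaf6 at 15.0 ± 2.12, Ing5 at 11.2 ± 3.13, Brpf1 at 9.06 ± 2.16, Kat6b at 7.73 ± 2.05, Brpf3 at 7.71 ± 1.52 and Brd1 at 7.35 ± 1.99. Kat6a was the lowest, at 3.78 ± 0.489 TPM, and its libraries lay below those of Brd1.

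ESC KD had a similar order with less spread. Kat7 stood at 60.4 ± 2.28 TPM, Kat5 at 25.7 ± 0.189, Kat8 at 23.1 ± 0.554, Meaf6 at 16.8 ± 0.164 and Ing5 at 15.3 ± 0.949. Brpf1 at 12.6 ± 0.771, Kat6b at 11.8 ± 0.638 and Brpf3 at 11.4 ± 0.913 overlapped in that order. Brd1 at 9.72 ± 0.829 and Kat6a at 4.45 ± 0.0712 were the lowest and did not overlap.

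In EBs the ends of the order were different: Kat6b, not Kat6a, was the lowest of the 10. In EB WT the values were 81.5 ± 2.95 TPM for Kat7, 60.7 ± 6.40 for Kat5, 47.7 ± 1.24 for Brd1, 35.6 ± 0.721 for Kat8, 33.5 ± 0.791 for Kat6a, 30.0 ± 1.31 for Brpf1, 29.8 ± 1.71 for Ing5, 24.8 ± 0.634 for Brpf3, 15.1 ± 1.76 for Meaf6 and 6.72 ± 0.269 for Kat6b. Of these neighbours, Brpf1 and Ing5 alone overlapped. In EB KD the order was Kat7 at 85.7 ± 3.25 TPM, Kat5 at 65.0 ± 5.32, Brd1 at 56.3 ± 3.30, Brpf3 at 51.7 ± 1.15, Kat6a at 49.4 ± 1.87, Kat8 at 39.7 ± 3.26, Brpf1 at 34.0 ± 0.299, Ing5 at 34.0 ± 1.24, Meaf6 at 22.5 ± 1.34 and Kat6b at 14.0 ± 0.396. Here Kat5 overlapped Brd1, Brpf3 overlapped Kat6a and Brpf1 overlapped Ing5. Brpf3 stood at rank 8 in EB WT and at rank 4 in EB KD.

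Values of 1 gene across libraries are given as CPM scaled with TMM factors of all 12 libraries, and the plot of CPM by library shows them for the 10 genes. In bulk samples, fewer cells of a type and less RNA per cell cannot be told apart.

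**Figure D1:**
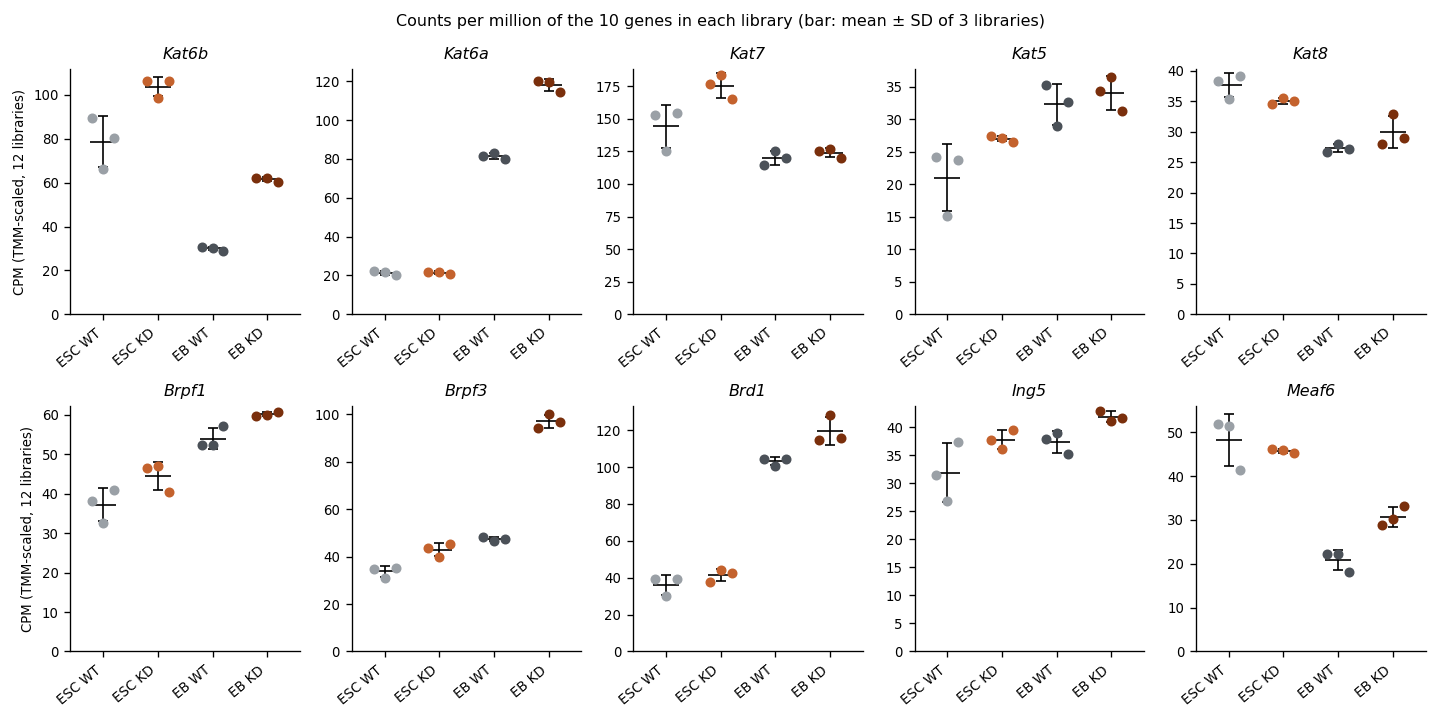
CPM (y axis, from 0, TMM-scaled over 12 libraries) of each of the 10 genes in ESC WT, ESC KD, EB WT and EB KD (x axis); each point is 1 library, and bars give the mean ± SD of 3. Kat6b was at 29.1 to 30.8 CPM in EB WT and 60.5 to 62.3 in EB KD, and Kat6a at 20.1 to 22.0 in both ESC groups and 80.0 or more in every EB library.

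The KD of circKat6b-e2 in EBs went with more, not less, linear Kat6b RNA. Kat6b read 30.8, 30.1 and 29.1 CPM in EB WT replicates 1 to 3 and 62.29, 61.96 and 60.48 CPM in EB KD. Every KD library lay above every WT library, with no overlap. The log2 fold change was 0.98 (SE 0.06, edgeR quasi-likelihood test with Benjamini-Hochberg adjusted p = 2.57e-15). The fold changes within a stage use the scaling of that stage's 6 libraries.

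Brpf3, a scaffold that brings KAT7 or KAT6 enzymes to chromatin, differed by as much. It read 48.1, 46.6 and 47.5 CPM in EB WT and 94.4, 100.0 and 96.7 CPM in EB KD. The KD libraries lay far above the WT libraries, and the log2 fold change was 0.97 (SE 0.05, edgeR adjusted p = 1.13e-17). Its fellow scaffolds moved little: Brd1 read 104.2, 100.6 and 104.5 CPM in EB WT and 114.8, 128.2 and 115.7 CPM in EB KD, a log2 fold change of 0.15 (SE 0.04, edgeR adjusted p = 0.00298). The Brd1 call was lost without EB KD replicate 2, its highest library (log2 0.10, edgeR adjusted p = 0.0596), and in the fit of all 12 libraries (log2 0.21, edgeR adjusted p = 0.0838). Brpf1, the scaffold most closely tied to KAT6A and KAT6B, read 52.3 to 57.2 CPM in EB WT and 59.8 to 60.8 CPM in EB KD and did not pass the test (log2 0.10, edgeR adjusted p = 0.106).

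Kat6a, the paralogue of Kat6b, rose as well. It read 81.7, 82.8 and 80.0 CPM in EB WT and 120.2, 119.9 and 114.6 CPM in EB KD. The groups did not overlap, and the log2 fold change was 0.48 (SE 0.04, edgeR adjusted p = 2.40e-11). Meaf6, the small subunit found in both BRPF and NuA4-type complexes, read 22.2, 22.1 and 18.2 CPM in EB WT and 28.8, 30.1 and 33.1 CPM in EB KD. Again the groups were apart, with a log2 fold change of 0.50 (SE 0.08, edgeR adjusted p = 7.67e-06). Ing5, the reader of methylated histone H3 in the same complexes, read 35.2 to 38.9 CPM in EB WT and 41.2 to 43.0 in EB KD and did not pass (log2 0.11, edgeR adjusted p = 0.151).

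The other 3 enzymes stayed within the spread of their libraries in EBs. Kat7 read 114.5 to 125.0 CPM in EB WT and 119.8 to 126.5 in EB KD (log2 -0.01, SE 0.04). Kat5 read 29.0 to 35.3 and 31.3 to 36.6 CPM (log2 0.02, SE 0.08), and Kat8 read 26.7 to 28.0 and 28.0 to 33.0 CPM (log2 0.07, SE 0.08). By edgeR, the adjusted p was 0.830 for Kat7, 0.881 for Kat5 and 0.424 for Kat8. The ranges of the WT and KD libraries overlapped for all 3.

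In all, 5 of the 10 genes rose, 0 fell and 5 did not pass the edgeR test. Most tested genes also differed in this comparison: 55.7% of 17355 were called, 28% higher and 27.7% lower. A share of 5 in 10 is therefore near the background, and what can be described is the direction and the size. The median log2 fold change was 0.13 over the 10 genes and 0.002 over all tested genes, and 9 of the 10 values were above 0. With a correction for exon length the 5 calls stood, at 0.80 for Kat6b, 0.95 for Brpf3, 0.50 for Meaf6, 0.40 for Kat6a and 0.10 for Brd1. Kat6b, Kat6a, Brpf3 and Meaf6 were called under each of 15 alternatives in this comparison, between 0.80 and 1.05 for Kat6b and between 0.95 and 1.05 for Brpf3.

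Markers of several cell types moved with this difference. The 7 mesenchyme markers summed to 626 to 635 CPM in EB WT and 1853 to 1877 in EB KD, and the 6 visceral and yolk sac endoderm markers to 163 to 167 and 451 to 467. The 7 pluripotency markers summed to 205 to 211 CPM in EB WT and 345 to 378 in EB KD. The 10 markers of differentiating EB cells were lower in EB KD, at 1187 to 1235 CPM against 1436 to 1457. The 6 blood and endothelium markers summed to 21.5 to 29.5 CPM in EB KD and 35.7 to 41.0 in EB WT. Of these 6, 1 had a mean of at least 1 CPM in EB WT, where Hbb-y and Hba-x were at 0, and 3 had in EB KD. That sum was 74.5 to 85.0 CPM in undifferentiated ESC WT, and it does not give the direction of each marker. The part of the markers in the Kat6b, Kat6a, Brpf3 and Meaf6 results was not tested.

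In ESCs the same comparison gave smaller differences, and none of the 10 genes passed the edgeR test. Kat6b read 89.3, 66.1 and 80.5 CPM in ESC WT and 106.1, 98.6 and 106.1 CPM in ESC KD. The KD libraries lay above the WT libraries here too, but ESC WT was widely spread, with replicate 2 the lowest. The log2 fold change was 0.41 (SE 0.10, edgeR adjusted p = 0.0893). Brpf3 read 34.8, 31.1 and 35.2 CPM in ESC WT and 43.6, 39.8 and 45.1 in ESC KD. These ranges did not overlap, and the log2 fold change was 0.35 (SE 0.10, edgeR adjusted p = 0.103).

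Among the other enzymes, Kat7 read 152.8, 125.3 and 154.8 CPM in ESC WT and 176.9, 183.9 and 164.9 in ESC KD. All 3 KD libraries were above the WT libraries (log2 0.29, SE 0.09, edgeR adjusted p = 0.124). Kat5 read 24.2, 15.1 and 23.8 CPM in ESC WT, where replicate 2 was far below the others, and 26.6 to 27.4 in ESC KD (log2 0.37, SE 0.16, edgeR adjusted p = 0.226). Kat6a overlapped between the groups, with 20.1 to 22.0 CPM in ESC WT and 20.5 to 21.8 in ESC KD (log2 0.02, SE 0.11). Kat8 stood at 35.4 to 39.2 and 34.5 to 35.5 CPM (log2 -0.10, SE 0.09).

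The remaining scaffolds and subunits overlapped between ESC WT and ESC KD. Brpf1 read 32.6 to 40.9 and 40.5 to 46.9 CPM (log2 0.27), Brd1 29.9 to 39.3 and 37.7 to 44.0 (log2 0.20), Ing5 27.0 to 37.4 and 36.1 to 39.5 (log2 0.25), and Meaf6 41.3 to 52.0 and 45.3 to 46.1 (log2 -0.07). By edgeR, 97 of 16081 genes were called in ESCs, which is 0.603% (0.168% higher and 0.435% lower), so a count of 0 in 10 is near the background. At an unadjusted p under 0.05 there were 5 of the 10, all higher in KD, and 3447 genes in all. The median log2 fold change was 0.26 over the 10 genes and 0.01 over all tested genes, with 8 of 10 values above 0.

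ESC WT replicate 2 bears on this count. Without it, edgeR called 3 of the 10 genes: Kat6b (log2 0.29, adjusted p = 0.00208), Kat7 (log2 0.19, adjusted p = 0.0130) and Brpf3 (log2 0.30, adjusted p = 0.0373). The fit of all 12 libraries called the same 3 genes, with a log2 fold change of 0.40 for Kat6b (edgeR adjusted p = 0.0148), 0.28 for Kat7 (0.0302) and 0.34 for Brpf3 (0.0136). DESeq2 called 1, Kat6b. These fits also called more of all genes: 9.35% of 16648 without ESC WT replicate 2, 10.5% of 18975 in the 12-library fit and 6.45% of 13417 with DESeq2. Leaving out that library lowered values that did not pass, to 0.18 for Kat5 (edgeR adjusted p = 0.387), 0.085 for Brd1 (0.685) and 0.14 for Ing5 (0.453) on the log2 scale. With a correction for exon length the Kat6b difference was 0.28 on the log2 scale (edgeR adjusted p = 0.108). None of these fits gave a lower level of Kat6b in KD. Markers also differed here: the 7 pluripotency markers were higher in ESC KD, as given above. The 6 visceral and yolk sac endoderm markers summed to 23.2 to 26.0 CPM in ESC WT and 12.3 to 13.6 in ESC KD. Afp was at 0 in ESC KD, and 1 of the 6 had a mean of at least 1 CPM in each ESC group. In each ESC group that sum therefore describes mainly 1 gene. The part of the markers in these values was not tested.

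**Figure D2:**
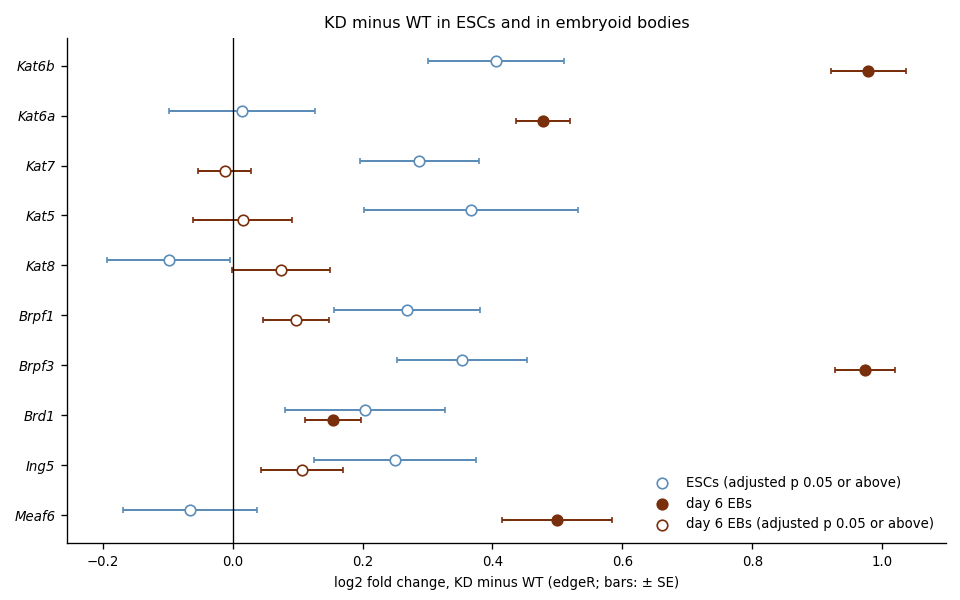
Log2 fold change KD minus WT (x axis, bars ± SE, edgeR) of the 10 genes (y axis) in ESCs and in day 6 EBs; filled points passed an adjusted p of 0.05. Kat6b (0.98), Brpf3 (0.97), Meaf6 (0.50), Kat6a (0.48) and Brd1 (0.15) passed in EBs, and 0 of 10 passed in ESCs.

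Whether the KD minus WT difference itself differed between the stages was tested as an interaction in the fit of all 12 libraries, which shares its libraries with the comparisons above. It was larger in EBs for 4 of the 10 genes and smaller for 0, against 23% of 18975 genes called (12.8% larger and 10.2% smaller). The difference of differences was 0.69 on the log2 scale for Brpf3 (edgeR adjusted p = 2.06e-04), 0.64 for Kat6b (edgeR adjusted p = 0.00166), 0.63 for Meaf6 (edgeR adjusted p = 0.00607) and 0.53 for Kat6a (edgeR adjusted p = 7.00e-04). These were the 4 genes with the largest differences in EBs. Without ESC WT replicate 2 the values were 0.71, 0.72, 0.56 and 0.49 in the same order, and with a length correction 0.72, 0.55, 0.67 and 0.54. For the other 6 genes the values ran from -0.28 for Kat5 to 0.24 for Kat8 and did not pass. On log2(TPM + 0.1) values with limma, 0 of the 10 passed, with Brpf3 at 0.48 (limma adjusted p = 0.0962) and Kat6b at 0.41 (limma adjusted p = 0.252). At an unadjusted p under 0.05 that limma fit gave 4 of the 10, and 6365 of all 18975 tested genes, so this count is near the background. Scaled to the library total alone, Kat6b missed the threshold (0.49, edgeR adjusted p = 0.0533) and the other 3 passed. The called genes over the whole table were 2430 larger and 1940 smaller with TMM, 1457 and 2676 with the library total alone, and 1371 and 2290 on TPM.

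With TMM scaling, the change from ESCs to EBs divided the paralogues: Kat6a was higher in EBs and Kat6b lower. In WT cells Kat6a read 22.0, 21.7 and 20.1 CPM in ESCs and 81.7, 82.8 and 80.0 in EBs, a log2 fold change of 1.94 (SE 0.07, edgeR adjusted p = 3.14e-13). Kat6b went the other way, from 89.3, 66.1 and 80.5 CPM to 30.8, 30.1 and 29.1, a log2 fold change of -1.39 (SE 0.09, edgeR adjusted p = 5.70e-10). In KD cells the values were 2.47 for Kat6a (SE 0.07, edgeR adjusted p = 2.51e-14) and -0.75 for Kat6b (SE 0.09, edgeR adjusted p = 8.91e-07). On TMM-scaled CPM, neither gene's ESC and EB libraries overlapped in either genotype. On TPM, Kat6b overlapped in WT cells, at 5.41 to 9.29 in ESCs and 6.45 to 6.99 in EBs. In KD cells it was higher in EBs on TPM, at 13.6 to 14.4 against 11.1 to 12.3. That difference did not pass (limma adjusted p = 0.186).

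Among the scaffolds, Brd1 rose with the stage by 1.51 in WT cells and 1.53 in KD cells on the log2 scale (edgeR adjusted p = 4.47e-10 and 3.91e-10). Brpf1 rose by 0.54 and 0.43, and Brpf3 by 0.49 and 1.18. Meaf6 fell, at log2 fold changes of -1.21 in WT cells (edgeR adjusted p = 2.73e-08) and -0.58 in KD cells (edgeR adjusted p = 1.11e-04), and Ing5 passed in neither genotype (0.23, edgeR adjusted p = 0.0532, and 0.15, edgeR adjusted p = 0.185). The Ing5 result depended on the settings. In WT cells it was called as higher in EBs with library size only (0.75, edgeR adjusted p = 9.93e-05), without the low-count filter (0.27, edgeR adjusted p = 0.0229), without ESC WT replicate 3 (0.32, edgeR adjusted p = 0.00756), without EB WT replicate 3 (0.28, edgeR adjusted p = 0.0424) and on TPM (1.44, limma adjusted p = 6.55e-06). In KD cells it was called with library size only (0.52, edgeR adjusted p = 0.00220) and on TPM (1.15, limma adjusted p = 5.07e-05). Of the other enzymes Kat5 rose, by 0.62 and 0.33, while Kat7 had log2 fold changes of -0.27 and -0.50 and Kat8 of -0.46 and -0.22, all past the edgeR threshold. The Kat5 call in KD cells (edgeR adjusted p = 0.0409) was lost when any 1 of 7 libraries was left out, among them each ESC KD library, with an adjusted p of up to 0.176. The Kat8 call in KD cells was lost without EB KD replicate 1 or 3 and without the low-count filter (-0.19, edgeR adjusted p = 0.138). With library size only, the calls in KD cells were lost for Kat7 (-0.13, edgeR adjusted p = 0.261) and Meaf6 (-0.21, edgeR adjusted p = 0.0844).

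That makes 5 genes higher and 4 lower in WT cells, with 79.8% of 18975 genes called, 42.5% higher and 37.3% lower. In KD cells 5 were higher and 4 lower as well, against 79.8% called, 42.5% higher and 37.3% lower. The counts are near these backgrounds. The median over the 10 genes was 0.36 in WT cells and 0.24 in KD cells, against 0.17 and 0.15 over all tested genes.

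Several of these directions hold only under some scalings, as the plot of stage changes by scaling shows. Relative to TMM, scaling to the library total alone moved the median of all genes in WT cells from 0.17 to 0.70 on the log2 scale, and TPM moved it to 1.30. In KD cells the medians were 0.15, 0.52 and 1.09. Scaled to the library total alone, the called genes in WT cells were 9876 higher and 5272 lower, against 8061 and 7072 with TMM, and on TPM they were 12304 higher and 3507 lower. In KD cells they were 8055 higher and 7087 lower with TMM and 11682 and 3855 on TPM. Kat6a, Brd1 and Kat5 were higher in EBs in both genotypes under all of these and under the length correction, at 0.89, 0.59 and 1.42 in WT cells with that correction. Kat6b with the length correction was at -2.87 in WT cells and -2.32 in KD cells. On TPM it was at -0.16 in WT cells (limma adjusted p = 0.380) and 0.25 in KD cells (limma adjusted p = 0.186), below the all-gene medians in both. Meaf6 on TPM stood at 0.01 in WT cells and 0.42 in KD cells, Kat7 at 0.95 and 0.50, and Kat8 at 0.75 and 0.77, so their direction reversed. With the length correction Brpf1 turned to -0.14 and -0.21, and Brpf3 to -0.27 in WT cells but 0.45 in KD cells.

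**Figure D3:**
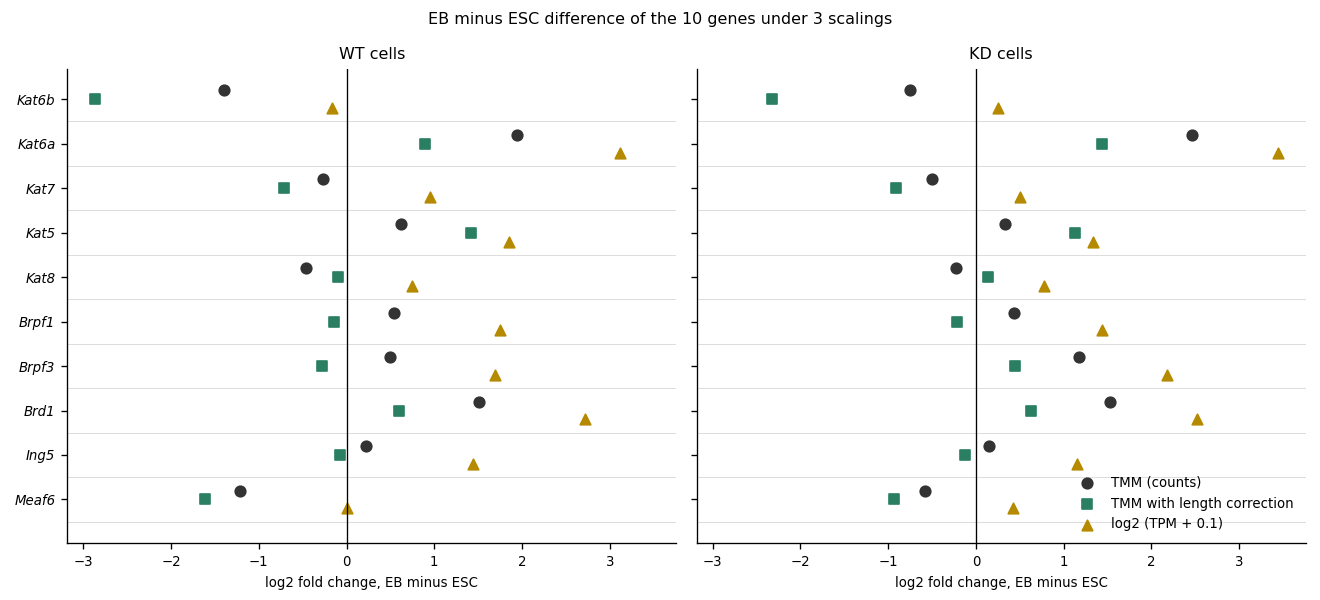
Log2 fold change EB minus ESC (x axis) of the 10 genes (y axis) in WT and in KD cells, for counts scaled with TMM, the same with a correction for exon length, and log2(TPM + 0.1). Kat6a, Brd1 and Kat5 lie right of 0 under all 3, and Kat6b in WT cells left of 0 under all 3 (-1.39, -2.87 and -0.16). Kat7, Kat8 and Meaf6 in both genotypes and Kat6b in KD cells (-0.75, -2.32 and 0.25) cross 0 on TPM. Brpf1 and Ing5 in both genotypes, Brpf3 in WT cells and Kat8 in KD cells cross 0 with the length correction.

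Shares within a library do not depend on scaling between libraries. They can still shift with the gene-length composition of a library, as Kat6b has 16826 exon bases and Kat6a 9180. With the length correction the KD minus WT log2 fold changes in EBs were 0.80 for Kat6b and 0.40 for Kat6a, against 0.98 and 0.48 without it. The shares were not corrected for this. Per kb of exon, Kat6b made up 68.9%, 62.5% and 68.6% of the Kat6a plus Kat6b signal in ESC WT and 72.6%, 71.2% and 73.8% in ESC KD. In EB WT it was 17.1%, 16.6% and 16.5%, and in EB KD 22.0%, 22.0% and 22.4%. Kat6b was thus the larger paralogue signal in every ESC library and the smaller one in every EB library. KD libraries were above WT libraries at both stages, by 5.90 percentage points in ESCs and 5.41 in EBs. Without ESC WT replicate 2 the ESC difference was 3.83 percentage points. The exact two-sided permutation p was 0.1 for each, which is the smallest that 3 against 3 libraries can give.

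Among the 5 enzymes, Kat6b took 8.25% ± 0.445 (SD, n = 3) in ESC WT and 9.38% ± 0.606 in ESC KD, which overlapped (exact permutation p = 0.2). In EBs it took 3.08% ± 0.0821 in WT and 5.53% ± 0.186 in KD, with no overlap (exact permutation p = 0.1). Kat7 held the largest share in all groups, 46.1% ± 0.510 in ESC WT and 37.4% ± 1.85 in EB WT. Kat6a went from 4.15% ± 0.627 in ESC WT to 15.3% ± 0.305 in EB WT and 19.5% ± 0.508 in EB KD.

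Among the 3 scaffolds, Brpf3 was at 31.7%, 33.8% and 31.1% in ESC WT and 34.6%, 31.0% and 35.9% in ESC KD, which overlapped (difference 1.64 percentage points, exact permutation p = 0.4). In EB WT it was at 24.6%, 24.4% and 23.7%, and in EB KD at 36.4%, 36.1% and 36.7%. The KD libraries were higher by 12.2 percentage points with no overlap (exact permutation p = 0.1). Brd1 went from 46.5% ± 0.486 in EB WT to 39.6% ± 1.13 in EB KD and Brpf1 from 29.2% ± 0.944 to 24.0% ± 0.865. Shares within a set are relative, so a larger share of 1 gene lowers the others.

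**Figure D4:**
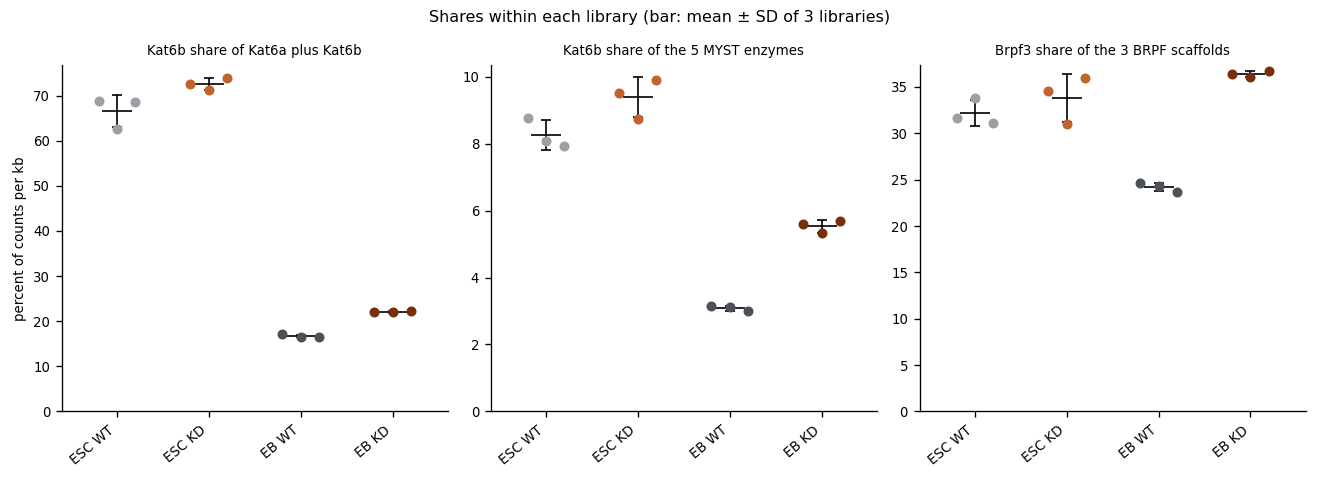
Share of counts per kb of exon within each library (y axis, percent, from 0) for Kat6b of Kat6a plus Kat6b, Kat6b of the 5 MYST enzymes, and Brpf3 of the 3 scaffolds, by group (x axis); points are libraries and bars the mean ± SD of 3. Kat6b made up 62.5% or more of the paralogue pair in ESC libraries and 22.4% or less in EB libraries, and EB KD lies above EB WT in all 3 panels.

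The partners of KAT7, KAT5 and KAT8 outside the 10 genes were described from 4 lists of 32 genes. In EBs, 14 of the 32 were higher in KD, 5 lower, and 13 did not pass the edgeR test, against 55.7% of all tested genes called, 28% higher and 27.7% lower. Of the 4 KAT7 partners 2 rose, Jade3 (log2 0.62) and Jade1 (0.47), which are alternative scaffolds of that enzyme, while Jade2 and Ing4 did not pass. Of the 16 KAT5 partners 7 rose and 4 fell. The largest rises were Epc2 (0.82) and Epc1 (0.70), paralogous scaffolds of the NuA4-type complex, and Yeats4 (0.35), a reader of acetylated histones. The largest falls were Ruvbl2 (-0.38), an ATPase, Trrap (-0.20), the large platform subunit, and Morf4l1 (-0.19).

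Of the 3 KAT8 MSL partners 1 rose, the scaffold Msl1 (0.19). Of the 9 NSL partners 4 rose and 1 fell. Phf20l1 (0.62), Kansl2 (0.20) and Hcfc1 (0.19) rose most, and Wdr5 (-0.30), which also serves histone methyltransferase complexes, fell. Over the 32 partners the median log2 fold change was 0.12. Of 8 histone acetyltransferases outside the MYST family, 6 rose and 2 fell in EB KD, against the same background of 55.7%. Kat2b (0.88), Naa40 (0.40) and Crebbp (0.38) rose most, and Hat1 (-0.31) and Kat2a (-0.12) fell.

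**Figure D5:**
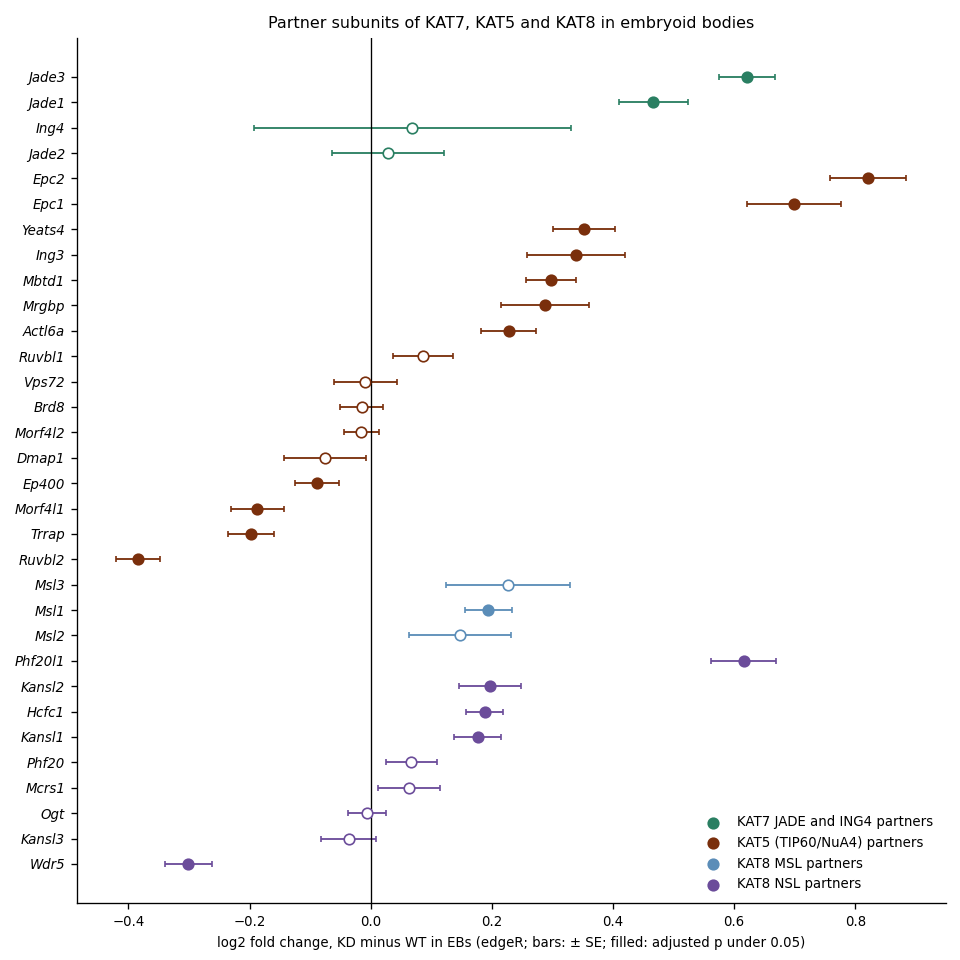
Log2 fold change KD minus WT in EBs (x axis, bars ± SE, edgeR) of the 32 partner subunits of KAT7, KAT5 and KAT8 (y axis), coloured by complex; filled points passed an adjusted p of 0.05. Epc2 (0.82), Epc1 (0.70), Jade3 (0.62) and Phf20l1 (0.62) lie farthest right and Ruvbl2 (-0.38) farthest left.

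In ESCs 1 of the 32 partners passed the edgeR test, against 0.603% of all 16081 tested genes. It was Hcfc1 (log2 0.46, SE 0.07, edgeR adjusted p = 0.0254), the host cell factor subunit of the NSL complex. It rose from 129.5 to 177.6 CPM on average. That call was lost without ESC WT replicate 1 or any 1 of the ESC KD libraries, where 0 of 32 passed. Those fits called from 8 of 16607 to 23 of 16619 of all tested genes. Without ESC WT replicate 2 the count was 7, and 9.35% of all 16648 tested genes were called. The interaction was called for 11 partners, 7 with a larger KD minus WT value in EBs and 4 with a smaller one, against 23% of all tested genes called, 12.8% larger and 10.2% smaller. The largest were Jade3 (0.76), Phf20l1 (0.49), Msl1 (0.48) and Jade1 (0.35), and the most negative Morf4l2 (-0.34), Trrap (-0.31), Ruvbl2 (-0.30) and Wdr5 (-0.28). Yeats4 (0.27) and Mbtd1 (0.33) of the KAT5 partners and Mcrs1 (0.31) of the NSL partners were the other 3. Without any 1 of the EB libraries, or without ESC KD replicate 1 or 3, the count of 11 was 6 or 7. Calls over all genes were fewer in those fits too, from 3389 of 19651 to 3716 of 19739, against 4370 of 18975. With the stage, 22 of the 32 partners rose and 8 fell in WT cells, and 22 and 8 in KD cells, against 79.8% of all tested genes called in each genotype, 42.5% higher and 37.3% lower. The largest rises in WT cells were those of Phf20l1, Jade3 (1.81), Epc2 (1.75) and Ogt (1.72), and Mcrs1 (-2.02), Ruvbl2 (-1.72) and Dmap1 (-1.71) had the largest falls.

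The genes most like Kat6b were ranked by Pearson's r of log2 CPM over the 12 libraries, among 10498 genes. These libraries fall into 4 groups, so r mostly describes the order of the 4 group means. The 5 highest were Tbx3 (0.992), Trh (0.991), Hes1 (0.987), Cnn3 (0.987) and Tet2 (0.985). Tbx3, a transcription factor of naive ESCs, and Tet2, which oxidises methylcytosine, had mean levels of 264 and 30.0 CPM in ESC WT, 307 and 47.0 in ESC KD, 182 and 10.5 in EB WT, and 243 and 22.8 in EB KD. With the mean of each stage subtracted, the 5 highest were Vcan (0.996), Ltn1 (0.991), Nid1 (0.991), Arid5b (0.990) and Arrdc3 (0.989). Vcan, an extracellular matrix proteoglycan, stood at 8.88 CPM in ESC WT, 13.7 in ESC KD, 155 in EB WT and 538 in EB KD. Among the 10 genes, Brpf3 was the most like Kat6b once stages were centred (r = 0.986), followed by Kat6a (0.891) and Meaf6 (0.749). The centred r was above 0 for every other member, the lowest being Kat8 (0.399). Centred r mostly describes the KD minus WT differences given above, so it adds no separate result. Over the 12 libraries without centring, Meaf6 was the most like Kat6b (0.915), and Kat6a (-0.690) and Brd1 (-0.694) ran against it.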

How the data were processed

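Per the file headers, the authors deposited a table of raw gene counts for each stage, made with featureCounts and the Ensembl release 90 annotation of GRCm38. HISAT2 2.1.0, featureCounts 2.0.3, DESeq2 1.18.1 and mm10 are named in the submitters' processing notes. The headers named no strand option and no option to count pairs, so each mate may have been counted. The tables were joined by gene identifier.

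edgeR 4.0.16 in R 4.3.3 was used with TMM factors, filterByExpr (minimum count 10, minimum total 15), robust quasi-likelihood F-tests and Benjamini-Hochberg adjustment over all tested genes, called at an adjusted p under 0.05. KD was compared with WT on the 6 libraries of each stage. Stage and interaction contrasts used all 12. TPM was computed from the deposited counts and exon lengths. The fits were tested on simulated counts with the same dispersion for every gene, no outlying library and no length-related difference between libraries. That test does not cover the outlying ESC WT replicate 2 or the differences in gene-length composition. Alternatives were DESeq2 1.42.0, limma-voom (limma 3.58.1), other scalings, no filter, halved counts, a replicate block and each library left out. 2 alternatives were chosen after seeing the data: limma on log2(TPM + 0.1), and an offset per library from a lowess curve of log2 CPM against exon length.

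The members and lists were chosen with earlier results of these data known. All 10 members were described. Of the other lists, up to 3 called genes per direction with the largest change were named. Genes like Kat6b were the 5 with the highest r among genes with a mean log2 CPM of at least 2. Protein sequences were not used here.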

Additional observations from a re-analysis of the deposited data

Results flagged for a closer look

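The KD minus WT difference of 4 genes was larger in EBs than in ESCs by the edgeR interaction test over 12 libraries. On the log2 scale the difference of differences was 0.64 for Kat6b (0.41 in ESCs and 0.98 in EBs), 0.53 for Kat6a (0.02 and 0.48), 0.69 for Brpf3 (0.35 and 0.97) and 0.63 for Meaf6 (-0.07 and 0.50). In EBs all 3 KD libraries lay above all 3 WT libraries for each of the 4, with CPM scaled over all 12 libraries. This held for 7 of the 10 genes, among them Brpf1 and Ing5, which did not pass the EB test. How many of all genes lie apart in this way was not counted, so it adds no support. The interaction test called 23% of all genes, so many other genes differed between the stages in this way. Marker sums and gene-length composition differed between EB KD and EB WT as well, and the part of the markers in these values was not tested. With the length correction the 4 values were 0.55, 0.54, 0.72 and 0.67.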

How the results depend on the processing

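In ESCs the number of the 10 genes called was 0 in edgeR with TMM, 3 without the low-count filter, 3 in the fit of all 12 libraries, 1 with DESeq2 and 0 to 3 with 1 library left out. Of 32 partners, 1 was called there, against 5 without the filter, 4 with DESeq2, 7 in the 12-library fit, 0 with library size only, 0 on TPM and 0 to 7 with 1 library left out. The interaction called 4 of the 10 genes, against 0 on TPM, and 11 partners, against 6 with library size only, 2 on TPM and 6 to 15 with 1 library left out. Of all 18975 tested genes it called 4370, against 4133 with library size only and 3661 on TPM. With 1 library left out it called from 3389 of 19651 to 5507 of 19729, so the number over all genes moved too. Over all 16081 tested genes the ESC comparison called 97, against 36 with library size only, 19 on TPM and 192 with the length correction. It called 1769 of 26041 without the filter, 865 of 13417 with DESeq2 and 1999 of 18975 in the 12-library fit. With 1 library left out it called 8 to 1557, the most without ESC WT replicate 2 (1557 of 16648). The causes were not tested.

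Replicate numbers did not pair the libraries: over 18 same-numbered pairs the correlation of deviations ran from -0.03 to 0.04. With a replicate block, 1 of the 10 genes and 2 of the 32 partners were called in ESCs, and 266 of 16081 genes in all.

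Directions reversed as follows (log2), with the range over fits with 1 library left out where such a fit reversed. KD minus WT in ESCs: Kat6a at -0.098 with the length correction and -0.023 to 0.041 with 1 library left out, Kat8 at 0.0086 and Meaf6 at 0.049 with library size only, and at 0.13 and 0.17 on TPM. In EBs: Kat7 at 0.0022 with library size only, 0.048 in the 12-library fit, 0.072 on TPM and -0.044 to 0.017 with 1 library left out, and Kat5 at -0.059 to 0.082 with 1 library left out. EB minus ESC in WT cells: Kat7 at 0.26 and Kat8 at 0.066 with library size only, Kat7 at 0.95, Kat8 at 0.75 and Meaf6 at 0.0062 on TPM, and Brpf1 at -0.14, Brpf3 at -0.27 and Ing5 at -0.072 with the length correction. In KD cells: Kat8 at 0.15 with library size only, Kat6b at 0.25, Kat7 at 0.50, Kat8 at 0.77 and Meaf6 at 0.42 on TPM, and Kat8 at 0.14, Brpf1 at -0.21 and Ing5 at -0.12 with the length correction. Interaction: Brd1 at -0.14 with library size only, -0.20 on TPM and -0.094 to 0.11 with 1 library left out, and Ing5 at -0.23 to 0.00019 with 1 library left out. The number of the 10 genes called in EBs was 4 to 7 over the 15 alternatives run, and Kat6b, Kat6a, Brpf3 and Meaf6 were called in each. Of all tested genes the fewest were called in the 12-library fit, 6650 of 18975. The most were called without the low-count filter, 9746 of 29101, against 9667 of 17355 in the main fit.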
